A study of Mus musculus with 9 samples.

Results

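Astrocytes and the astrocyte-like stem cells of the adult brain clear glutamate, potassium and water from the space around neurons, and 9 genes of this machinery were followed here, out of 14477 genes measured. They were taken by name: the glutamate transporter genes Slc1a2 and Slc1a3, the glutamine synthetase gene Glul, the potassium channel gene Kcnj10, the sodium pump subunit gene Atp1b2, the water channel gene Aqp4, the gap junction genes Gja1 and Gjb6, and the bicarbonate transporter gene Slc4a4. All 9 were in the table, each with at least 389 reads in every library, so none was lost to a filter on low values. The libraries came from adult mice of the strain B6.Cg-Tg(Nes-EGFP)1Yamm, which carries green fluorescent protein under control of a Nestin fragment (Nestin being a precursor cell gene). Fluorescent cells were sorted from the dentate gyrus of the hippocampus (DG, n = 5 libraries) or from the subventricular zone beside the lateral ventricles (SVZ, n = 4), from untreated mice in standard housing. All groups carried the transgene, which reports activity of a Nestin fragment in any cell type where that fragment is active. The labels used here give neither age nor sex, and do not say whether a library is 1 mouse or a pool, so p-values measure only the spread between libraries, part of which may be technical.

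Neurons release glutamate and potassium when they fire. Astroglia take glutamate up through sodium-driven transporters, convert it to glutamine with glutamine synthetase and return glutamine to neurons. Potassium enters through the inward rectifier channel Kir4.1 (Kcnj10) and the sodium pump, water crosses the membrane at aquaporin 4, and gap junctions of connexin 43 (Gja1) and connexin 30 (Gjb6) spread the load from cell to cell. Radial glia-like stem cells of the DG and the SVZ share most of these genes with mature astrocytes. The comparison asked how far their expression differed between cells sorted with the same reporter from the 2 regions.

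Total reads per library ranged from 31126803 to 41164044. The labelled precursor identity was checked on 11 marker genes, all detected in every library, of which 4 were higher in DG, 4 higher in SVZ and 3 not called. Over all genes, 32.9% were called higher in DG and 33.7% higher in SVZ by the test given below. Nes stood at 5.89 to 6.99 log2 CPM in DG and 6.87 to 7.61 in SVZ, where CPM is the reads of a gene scaled to a common library total and a prior count of 1 read is added before the logarithm. Genes of other cell types were present too. The 10 endothelial and the 10 pericyte and smooth muscle markers were all higher in DG, with summed levels of 839 to 1841 CPM against 10.6 to 55.9 CPM, and of 5406 to 11212 CPM against 71.4 to 168 CPM. The 8 fibroblast and meningeal markers were all higher in DG too, with a median log2 fold change of 5.14 (193 to 396 against 11.3 to 19.4 CPM). All 8 oligodendrocyte precursor markers were higher in DG (2896 to 4869 against 362 to 664 CPM), all 8 neuroblast markers were higher in SVZ (22649 to 26610 against 6539 to 9685 CPM), and 6 of 8 ependymal markers were higher in SVZ although their summed levels overlapped (176 to 488 against 401 to 487 CPM). Calls were mixed for myelinating oligodendrocytes (5 of 8 markers higher in DG, 1 in SVZ), mature neurons (3 and 1 of 8) and microglia and macrophages (2 and 2 of 9). None of these markers was at 0 reads in any library. The part of these cell types in the results below was not tested, and in sorted bulk samples fewer cells of a type and less RNA per cell cannot be told apart.

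The promoters of the gene with the largest regional difference (Slc1a3), the gene with the steadiest difference (Kcnj10) and the gene with the smallest (Glul) are shown, as genes that differed in the same direction by very unequal amounts. Each run is the 300 bases from 250 before to 50 after the RefSeq start site (build GRCm38.p6), read 5′ to 3′ on the gene's strand. Capitals mark CCAAT boxes (CCAAT) and GC boxes (GGGCGG) on either strand, letters that transcription factors bind in many promoters.
Slc1a3, chr15:8710758-8711057, minus strand: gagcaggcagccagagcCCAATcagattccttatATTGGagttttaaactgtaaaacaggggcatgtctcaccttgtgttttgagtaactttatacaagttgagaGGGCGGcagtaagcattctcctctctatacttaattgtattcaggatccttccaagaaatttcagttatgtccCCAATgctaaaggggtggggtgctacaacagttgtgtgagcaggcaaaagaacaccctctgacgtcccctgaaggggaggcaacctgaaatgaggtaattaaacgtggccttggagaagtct
Kcnj10, chr1:172340960-172341259, plus strand: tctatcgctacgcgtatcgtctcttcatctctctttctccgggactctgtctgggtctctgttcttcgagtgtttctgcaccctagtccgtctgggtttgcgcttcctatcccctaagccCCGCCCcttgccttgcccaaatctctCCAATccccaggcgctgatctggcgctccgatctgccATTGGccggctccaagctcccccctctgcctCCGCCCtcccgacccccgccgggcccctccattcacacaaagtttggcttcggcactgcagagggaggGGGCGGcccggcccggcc
Glul, chr1:153899679-153899978, plus strand: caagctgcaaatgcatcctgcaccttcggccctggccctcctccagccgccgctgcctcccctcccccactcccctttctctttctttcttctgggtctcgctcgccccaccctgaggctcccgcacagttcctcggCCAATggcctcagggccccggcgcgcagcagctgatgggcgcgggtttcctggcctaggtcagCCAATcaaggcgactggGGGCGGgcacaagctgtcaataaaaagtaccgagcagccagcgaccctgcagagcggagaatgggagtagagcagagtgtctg

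Slc1a3 had 3 CCAAT boxes and 1 GC box in its window, Kcnj10 had 2 and 3, and Glul had 2 and 1. Among the 8 windows found for 7 of the 9 genes, 4 held a CCAAT box, where 37.4% of all 32851 windows do, and 4 held a GC box, where 35.7% do. The letters of a TATA box (TATAAA, either strand) were in 1, the Slc1a3 window, where 13.6% of all windows hold them. This match lay at -161 from the start site on the strand opposite to the gene. The half-site of nuclear factor I (TTGGCA, either strand, which can share letters with a CCAAT box) was in 0, where 14.1% hold it. The windows also differed in composition. Slc1a2 (chr2:102706188-102706487) held 1 CpG dinucleotide and Slc1a3 held 3, against 17 in Glul, 21 in Kcnj10 and 50 in the first of the 2 windows of Slc4a4, beside a median of 7 over all windows. The Slc1a2 window lies inside the annotated gene, which begins at 102658659, so it need not show the main start of Slc1a2. Since each of the 9 genes was higher in DG (below), a link between the composition of a start and region could not be tested on them. No window was found for Aqp4 and Atp1b2.

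All 9 genes were higher in DG. Each passed the test (limma with Benjamini-Hochberg adjustment over all 14477 genes, adjusted p under 0.05), where 32.9% of all genes were called higher in DG, 33.7% higher in SVZ and 66.6% in either direction. The regions did not overlap in any of the 9, the lowest DG value exceeding the highest SVZ value. Such a separation held for 29.7% of all genes, and the opposite separation for 28.3%. Log2 fold changes, DG minus SVZ, ran from 0.90 for Glul to 3.44 for Slc1a3 with a median of 2.22, beside a median of -0.07 over all genes. The count stayed at 9 without SVZ 1, DG 2 and DG 3, an alternative added after seeing the data. Each of these libraries stood apart in the mean of some cell type markers (below).

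Slc1a3 (ENSMUSG00000005360, chromosome 15, 8634124 to 8710764, minus strand) encodes the glutamate transporter GLAST, which marks radial glia and their adult descendants. Its level was 13.13, 13.14, 13.28, 13.70 and 13.48 log2 CPM in DG 1 to DG 5 and 9.42, 10.21, 9.92 and 10.09 in SVZ 1 to SVZ 4. The lowest DG library was 2.93 above the highest SVZ library, the widest gap of the 9 genes. Expression was 10.8-fold higher in DG (log2 fold change 3.44 with SE 0.17 and adjusted p = 5.02e-08). It took more reads than any other gene of the table in 3 of the 5 DG libraries and came second to the actin gene Actb in DG 2 and DG 3, with 0.899% to 1.34% of all reads. In SVZ it took 0.0683% to 0.118% of reads and ranked between places 69 and 152.

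Slc1a2 (ENSMUSG00000005089, chromosome 2, 102658659 to 102790784, plus strand) encodes GLT-1, the main glutamate transporter of mature forebrain astrocytes. DG libraries held 10.77, 10.63, 11.05, 11.14 and 11.15 log2 CPM and SVZ libraries 8.41, 9.01, 8.80 and 9.17. The groups did not overlap, and SVZ 1 was the lowest of all. The DG level was 4.28-fold that of SVZ (log2 fold change 2.10, SE 0.16, adjusted p = 9.33e-07). Its exons share 189 bases with the opposite-strand gene Gm13872, and the library kit is not described as marking strand, but Gm13872 had reads equal to only 0.0739% of those of Slc1a2.

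Glul (ENSMUSG00000026473, chromosome 1, 153899944 to 153909723, plus strand), whose enzyme turns the captured glutamate into glutamine, differed least. It measured 8.60, 8.60, 8.85, 9.07 and 9.19 log2 CPM in DG and 7.48, 8.20, 7.96 and 8.23 in SVZ. The lowest DG libraries, DG 1 and DG 2, lay only 0.37 above SVZ 4. The difference was 1.86-fold (0.90, 95% confidence interval 0.51 to 1.28, SE 0.17, adjusted p = 0.000864), and this interval lay below that of every other gene of the 9, the next lowest of which began at 1.42 (Slc4a4).

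Kcnj10 (ENSMUSG00000044708, chromosome 1, 172341210 to 172374085, plus strand), the Kir4.1 potassium channel gene, was the steadiest within each region. It stood at 7.89, 7.80, 7.93, 7.93 and 8.27 log2 CPM in DG and 5.29, 5.29, 5.28 and 5.47 in SVZ. No other gene of the 9 had a smaller SD in either region (0.18 in DG and 0.09 in SVZ), and its adjusted p was the smallest of the 9. The channel gene had a 6.19-fold higher level in DG (2.63, SE 0.11, adjusted p = 1.85e-08). DG 5 and SVZ 4 were each the high library of their group.

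Atp1b2 (ENSMUSG00000041329, chromosome 11, 69599736 to 69605942, minus strand) encodes the beta 2 subunit of the sodium pump, which also acts in adhesion of glia. It was the least steady of the 9, at 10.36, 9.43, 10.65, 10.02 and 8.94 log2 CPM in DG and 5.95, 7.88, 7.22 and 6.27 in SVZ. DG 5 was low for Atp1b2 although it was above the DG mean for the other 8 genes, and in SVZ the high libraries were SVZ 2 and SVZ 3. The SD was 0.69 in DG and 0.88 in SVZ. The 8.3-fold difference (3.05, SE 0.42, adjusted p = 7.24e-05) therefore has the widest interval, from 2.13 to 3.98.

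Aqp4 (ENSMUSG00000024411, chromosome 18, 15389496 to 15410982, minus strand), the water channel of astrocyte endfeet that ependymal cells also express, was 8.30, 7.68, 8.29, 8.15 and 8.34 log2 CPM in DG and 5.70, 6.10, 6.28 and 5.65 in SVZ. DG 2 was the low DG library. Its DG level was 4.66-fold the SVZ level (2.22, SE 0.17, adjusted p = 7.86e-07). Of the 8 ependymal markers, 6 were higher in SVZ, Foxj1 among them (-3.15), Pltp was higher in DG (1.78) and Rarres2 was not called (0.33). The part of ependymal cells in the Aqp4 level was not tested.

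Gja1 (ENSMUSG00000050953, chromosome 10, 56377330 to 56402513, plus strand) encodes connexin 43, which cells of vessel walls, meninges and ependyma also make. Its values were 10.86, 10.57, 10.90, 11.07 and 11.10 log2 CPM in DG and 8.28, 9.37, 9.22 and 9.17 in SVZ, with SVZ 1 well below the other SVZ libraries. The fibroblast and meningeal, endothelial and pericyte markers given above were higher in DG as well, and their part in this difference was not tested. The difference for Gja1 was 3.7-fold (1.89, SE 0.20, adjusted p = 1.1e-05). Gjb6 (ENSMUSG00000040055, chromosome 14, 57123303 to 57133611, minus strand) encodes connexin 30, a partner that mature astrocytes add. It measured 7.40, 7.09, 7.47, 7.82 and 7.74 in DG and 3.61, 4.76, 4.37 and 4.66 in SVZ, again with SVZ 1 lowest. The Gjb6 difference was 8.91-fold (3.16, SE 0.23, adjusted p = 5.83e-07).

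Slc4a4 (ENSMUSG00000060961, chromosome 5, 88886818 to 89239653, plus strand) encodes the sodium bicarbonate cotransporter NBCe1, which buffers pH as potassium and glutamate are taken up. DG libraries held 6.43, 6.18, 6.92, 6.72 and 6.82 log2 CPM and SVZ libraries 4.35, 4.72, 4.63 and 5.29. SVZ 4 was the high SVZ library, and the groups stayed 0.89 apart. This made a 3.64-fold difference (1.86, SE 0.20, adjusted p = 1.08e-05).

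**Figure D1:**
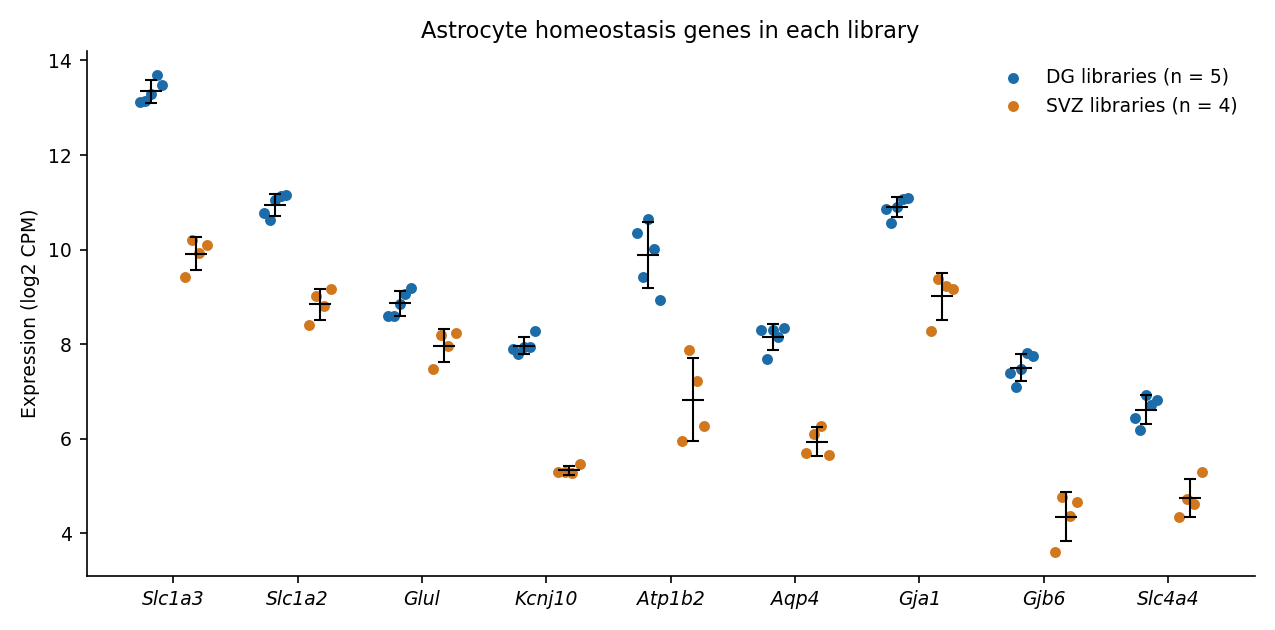
Expression in log2 CPM (vertical axis) of the 9 genes (horizontal axis) in each of 5 DG and 4 SVZ libraries. Points are libraries, the short bar is the mean and the whiskers are ± 1 SD. DG points lie above SVZ points for each gene, with the narrowest gap in Glul (0.37) and the widest in Slc1a3 (2.93).

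**Figure D2:**
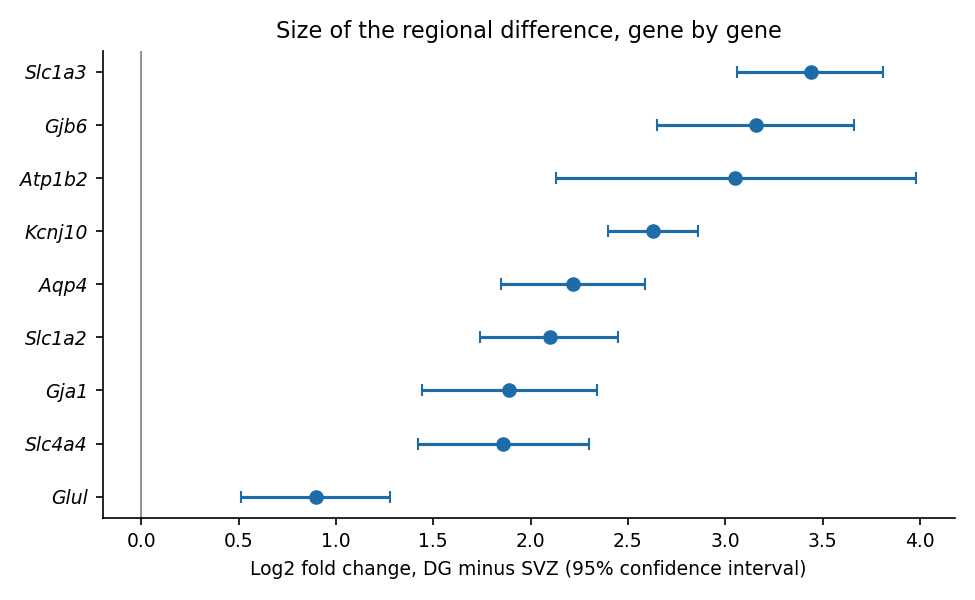
Log2 fold change, DG minus SVZ (horizontal axis), of the 9 genes, with 95% confidence intervals from limma. Glul (0.90) stands apart at the low end, and Slc1a3 (3.44), Gjb6 (3.16) and Atp1b2 (3.05) lie at the high end with intervals that overlap.

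The genes did not differ by equal amounts, and pairs of related genes were compared within each library to test this. The difference of 2 log2 CPM values in a library is the log2 ratio of their reads, and does not depend on the scaling of the library. For 6 such ratios an exact two-sided permutation test was run on the library labels (smallest possible exact p = 0.0159), adjusted over the 6. Slc1a2 lay below Slc1a3 by 2.40 ± 0.13 (SD, n = 5) in DG and by 1.06 ± 0.12 (SD, n = 4) in SVZ in log2 reads. The values per library were -2.37, -2.50, -2.23, -2.56 and -2.33 in DG and -1.01, -1.20, -1.12 and -0.92 in SVZ, without overlap. Relative to Slc1a2, DG libraries thus held 2.53-fold more Slc1a3 reads than SVZ libraries (exact permutation p = 0.0159, adjusted p = 0.0238).

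The connexin pair shifted as well. Gjb6 minus Gja1 was -3.46, -3.48, -3.42, -3.25 and -3.35 in DG and -4.67, -4.61, -4.85 and -4.51 in SVZ. Gjb6 was thus 2.41-fold higher relative to Gja1 in DG (difference 1.27, exact permutation p = 0.0159, adjusted p = 0.0238), and the SD within a region was only 0.09 to 0.14 although Gja1 and Gjb6 themselves varied by 0.50 and 0.52 in SVZ. Low values of both genes in SVZ 1 therefore left their ratio where it was in the other SVZ libraries.

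Glul fell behind both transporters in DG. Its ratio to Slc1a2 was -2.08 ± 0.10 (SD, n = 5) in DG and -0.88 ± 0.07 (SD, n = 4) in SVZ, a difference of -1.20 (exact permutation p = 0.0159, adjusted p = 0.0238). Against Slc1a3 it was -4.48 ± 0.13 (SD, n = 5) in DG and -1.94 ± 0.06 (SD, n = 4) in SVZ, a difference of -2.54 or 5.82-fold (exact permutation p = 0.0159, adjusted p = 0.0238). These 4 ratios did not overlap between the regions. The ratios among Glul, Slc1a2 and Slc1a3 are not separate results, since each follows from the other ones. All pairs were chosen with earlier results of these data known.

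The other pairs did not pass. Aqp4 minus Kcnj10 ran from -0.12 to 0.42 in DG and from 0.18 to 1.00 in SVZ (difference -0.41, exact permutation p = 0.111, adjusted p = 0.111). Slc4a4 minus Atp1b2 ran from -3.93 to -2.13 in DG and from -3.16 to -0.98 in SVZ (difference -1.19, exact permutation p = 0.0794, adjusted p = 0.0952), a spread set by Atp1b2. This ratio passed without DG 5 (difference -1.47, adjusted p = 0.0343). With 3 SVZ libraries the smallest possible exact p is 0.0357, so the 4 ratios that passed had an adjusted p of 0.0536 without any 1 SVZ library.

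**Figure D3:**
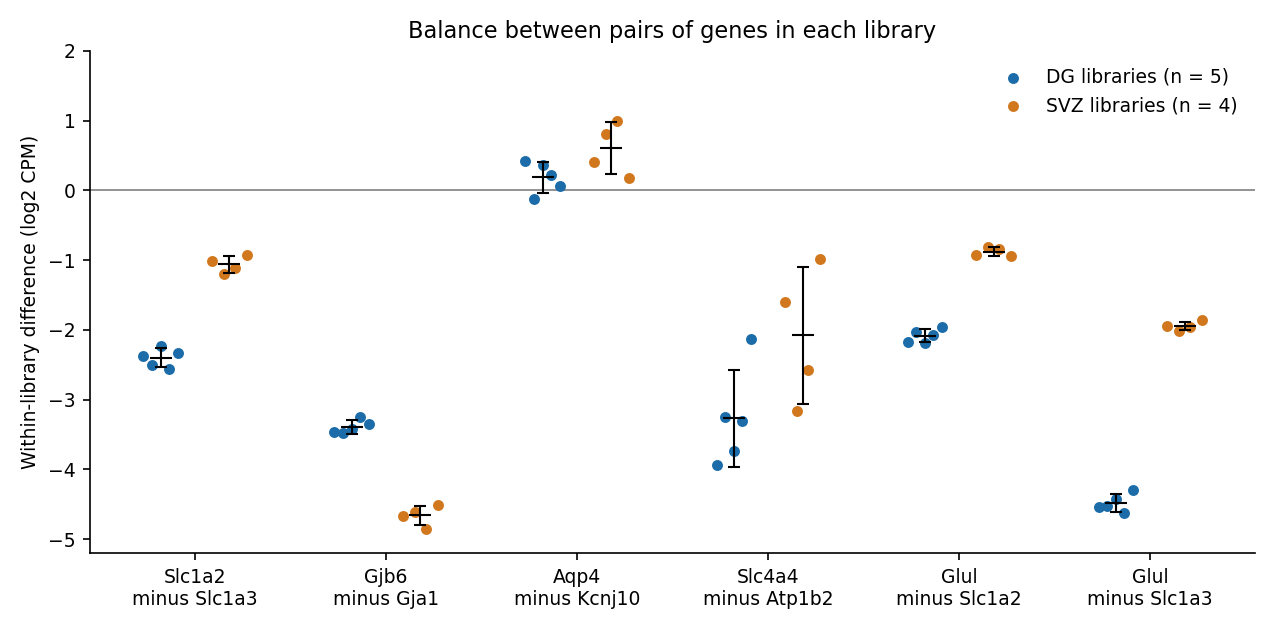
Within-library difference between 2 genes in log2 CPM (vertical axis) for 6 pairs (horizontal axis). Points are libraries, bars are means and whiskers ± 1 SD. The pairs Slc1a2 and Slc1a3, Gjb6 and Gja1, and Glul with either transporter form tight, separate groups by region, whereas the DG and SVZ points of the remaining pairs overlap.

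Levels of different genes can be compared only per length, and were divided by the length of all exons merged (2.67 kb for Gjb6 to 13.13 kb for Slc1a2). On the scale of log2 CPM per kb, Slc1a3 was the highest of the 9 in both regions, at 10.25 ± 0.24 (SD, n = 5) in DG and 6.82 ± 0.35 (SD, n = 4) in SVZ. In DG it stood 2.40 above the next gene, Atp1b2 (7.85 ± 0.69), and it ranked between places 9 and 16 of all genes. Gja1 (7.54), Slc1a2 (7.23) and Glul (7.13) followed Atp1b2, and neighbours in that order overlapped. Gjb6 (6.09), Kcnj10 (5.53) and Aqp4 (5.51) formed the next group, Kcnj10 and Aqp4 being 0.02 apart, and Slc4a4 was lowest at 3.18, below every library of Aqp4.

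The order was different in SVZ. Glul was the second highest there (6.24 ± 0.35, SD, n = 4), 0.58 below Slc1a3, with Gja1 (5.65), Slc1a2 (5.13) and Atp1b2 (4.80) after it. Each of these overlapped with its neighbour across libraries, although Slc1a3 was above Glul, Glul above Gja1 and Gja1 above Slc1a2 within each of the 4 libraries. Aqp4 (3.29), Gjb6 (2.93) and Kcnj10 (2.90) lay close together, and Slc4a4 was again lowest at 1.31. Merged exon length counts exons of rare transcripts too, so it can understate the level of a gene with long alternative ends.

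Within a region many of the 9 genes deviated in the same direction in a library, most clearly in DG 2 and SVZ 1. The same was not counted over all genes, so this need not be particular to the 9. Together they took 1.38% to 2.02% of reads in DG libraries and 0.17% to 0.305% in SVZ libraries. DG 2 was below the DG mean for all 9 genes, by 0.34 log2 units on average, and SVZ 1 was below the SVZ mean for all 9, by 0.49. Kcnj10 hardly took part in SVZ 1 (-0.04), and Atp1b2 (-0.56) and Aqp4 (-0.28) were below the mean in SVZ 4, where the other genes were above it. SVZ 1 was the lowest SVZ library for 7 of the 9 genes, and DG 2 the lowest DG library for 6. DG 5 was the highest DG library for 5 genes and above the mean for 8, all but Atp1b2.

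These libraries differed in other markers as well. The mean of the 14 astrocyte markers was 7.34 log2 CPM in DG 2 against 7.57 to 7.97 in the other DG libraries, and that of the 8 neuroblast markers was 9.65 against 8.60 to 8.95. In SVZ 1 the astrocyte mean was 4.49 against 5.01 to 5.28, and the endothelial mean was 2.10 against -0.38 to 0.07. Low means were not limited to astrocyte markers. The microglia and macrophage mean was 4.14 in DG 2 against 4.79 to 5.76, and 3.03 in SVZ 1 against 4.32 to 4.98. The myelinating oligodendrocyte mean was 6.98 in DG 2 against 7.53 to 8.25, and 5.99 in SVZ 1 against 7.02 to 7.36. DG 3, whose mature neuron mean was 6.22 against 4.01 to 4.42 in the other DG libraries, stayed within 0.31 of the DG mean for 8 of the 9 genes, Atp1b2 (0.77 above) being the other. The part of these markers in the spread was not tested.

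**Figure D4:**
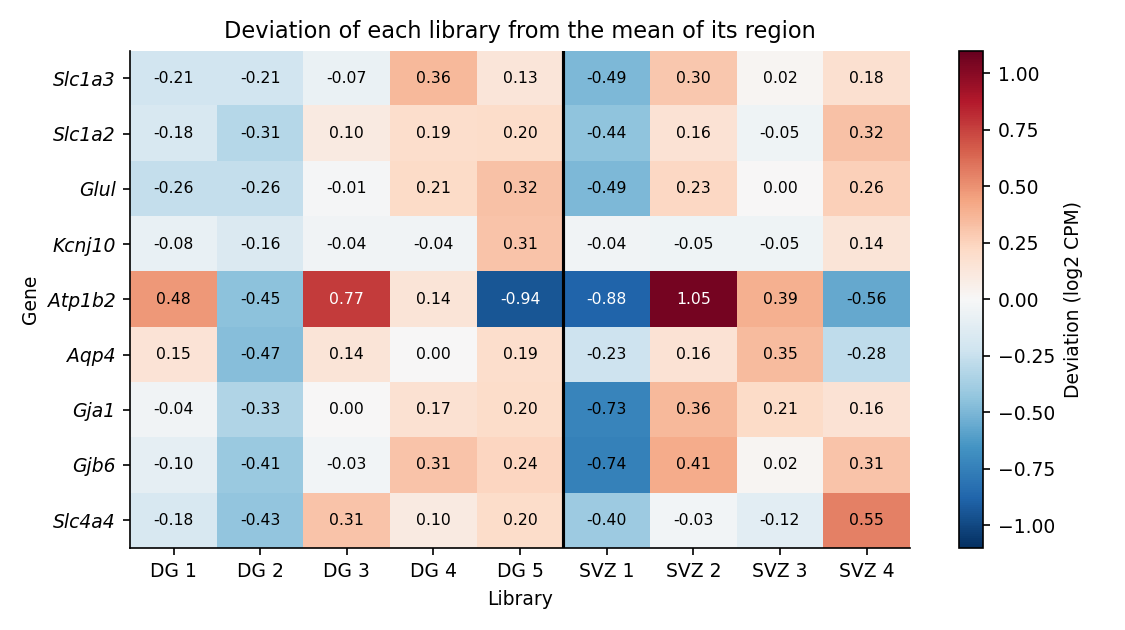
Deviation of each library (columns) from the mean of its own region, in log2 CPM, for the 9 genes (rows), printed in each cell and coloured from blue (below) to red (above). Columns DG 2 and SVZ 1 are below 0 throughout, and the row of Atp1b2 has the largest deviations, from -0.94 in DG 5 to 1.05 in SVZ 2.

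Other genes of the same tasks were taken from 6 lists, chosen by function. Beside the counts below, 32.9% of all genes were called higher in DG and 33.7% higher in SVZ. Among 12 measured carriers of amino acids and related transmitters, the test called 10 for DG and 1 for SVZ, and the median log2 fold change was 1.96 (all genes -0.07). Slc6a11, the astrocytic GABA transporter GAT-3, was higher by 2.66 (SE 0.14, adjusted p = 7.07e-08) and Slc7a11, which exchanges glutamate for cystine, by 3.03 (SE 0.18, adjusted p = 1.65e-07). The glutamine carrier Slc38a3, which releases glutamine from astrocytes, was also higher in DG (1.71). Slc38a2, a carrier known for glutamine uptake, was higher in SVZ (-1.16, SE 0.13, adjusted p = 1.3e-05). The related Slc38a1 made this count 2 without DG 4 (-0.35, adjusted p = 0.0104) or without SVZ 3 (-0.32, adjusted p = 0.0458).

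Of 10 measured enzymes around glutamate, 4 were higher in DG, 1 in SVZ and 5 not called (median 0.21). The 4 called for DG are near the share over all genes (32.9%), and the 1 for SVZ is below it (33.7%). Glud1, glutamate dehydrogenase, was higher in DG by 1.16 (SE 0.17, adjusted p = 9e-05) and the transaminase gene Gpt by 1.32 (SE 0.26, adjusted p = 0.000866). Abat, which breaks down GABA, was at 0.12 and did not pass (adjusted p = 0.268). The aspartate transaminase gene Got2 was barely called in SVZ (-0.35, adjusted p = 0.0486), and lost its call under TMM scaling (adjusted p = 0.0835) and without any of DG 1, DG 3, DG 4, DG 5, SVZ 1, SVZ 3 and SVZ 4 (adjusted p 0.0553 to 0.134). The DG count was 2 without SVZ 2 or without SVZ 3. The SVZ count was 0 without DG 1, DG 4, SVZ 1, SVZ 3 or SVZ 4.

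Of 18 genes of potassium channels, the sodium pump and chloride cotransport, 12 passed as higher in DG and 3 as higher in SVZ (median 1.39). Kcnj16, whose channel subunit joins that of Kcnj10, was higher by 3.14 and the cotransporter gene Slc12a4 by 2.84. Slc12a7 (-1.01) and the channel gene Kcnk10 (-1.25) were higher in SVZ. Atp1b1, a pump subunit gene known from neurons, was not called with all libraries (-0.56, adjusted p = 0.421), with DG 3 at 6.56 log2 CPM against at most 3.67 in the other DG libraries. DG 3 is the library with the high mature neuron markers. Without it Atp1b1 passed as higher in SVZ (-1.17, adjusted p = 0.00144).

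Of 14 measured genes of aquaporins and of proteins that anchor them at endfeet, 12 passed as higher in DG and 0 as higher in SVZ (median 1.88), while 1, the dystrobrevin gene Dtnb, was called for SVZ without SVZ 2 (-0.53, adjusted p = 0.0459). Dmd, dystrophin, was higher by 2.52 (SE 0.17, adjusted p = 3.8e-07) and Gpr37l1, an astroglial receptor gene, by 3.02 (SE 0.22, adjusted p = 6.34e-07). Mlc1, a membrane protein of endfeet, was higher by 2.61 and the dystroglycan gene Dag1 by 1.14. Dmd and Utrn (2.60) are also known from vessel wall cells, whose markers were higher in DG. Agrn, a matrix protein of endfeet, did not pass (-0.07, adjusted p = 0.634).

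Other gap junction genes were mostly higher in DG too, 8 of 10 measured against 1 in SVZ (median 2.60). Gja4, a connexin of vessel walls, was 108-fold higher (6.75, SE 0.34, adjusted p = 5.43e-08), in libraries where all 10 endothelial and all 10 pericyte and smooth muscle markers were higher. Gjc3, a connexin of the oligodendrocyte lineage, was higher by 3.44 (SE 0.25) and Gjb2, connexin 26, by 3.05. Panx1, a pannexin, was higher in SVZ (-0.79, adjusted p = 0.0235), a call that did not survive removal of DG 1 (adjusted p = 0.0534), of SVZ 1 (0.0701) or of SVZ 4 (0.0703), each of which made the SVZ count 0.

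Of 14 genes of bicarbonate, proton and lactate transport, 10 passed as higher in DG and 1 as higher in SVZ (median 1.24). Car4, a carbonic anhydrase of brain capillaries, was 129-fold higher (7.01, SE 0.26, adjusted p = 1.33e-08), beside the higher endothelial markers. Slc16a1, a lactate transporter that capillaries also make, was higher by 2.10 (SE 0.15), and Car2, the cytosolic carbonic anhydrase, by 3.15. The bicarbonate transporter gene Slc4a7 was higher in SVZ (-0.89, adjusted p = 0.00671), a count that rose to 2 with Slc4a3 without DG 3 (-0.45, adjusted p = 0.0219) and with Car14 without SVZ 1 (-0.62, adjusted p = 0.0421).

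Astrocyte markers moved with the 9 genes. Of 14, 13 were higher in DG and 0 in SVZ, with a median of 2.35, and their summed level was 6204 to 10420 CPM in DG and 749 to 1539 CPM in SVZ. The exception was Sox9, a transcription factor of astroglia and stem cells, at 7.05 to 7.77 log2 CPM in DG and 7.06 to 7.15 in SVZ (0.31, 95% confidence interval -0.01 to 0.62, adjusted p = 0.0818). The largest differences were those of Agt (5.74), the angiotensinogen gene, and Slc14a1 (5.49), a urea transporter gene, both beyond Slc1a3.

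**Figure D5:**
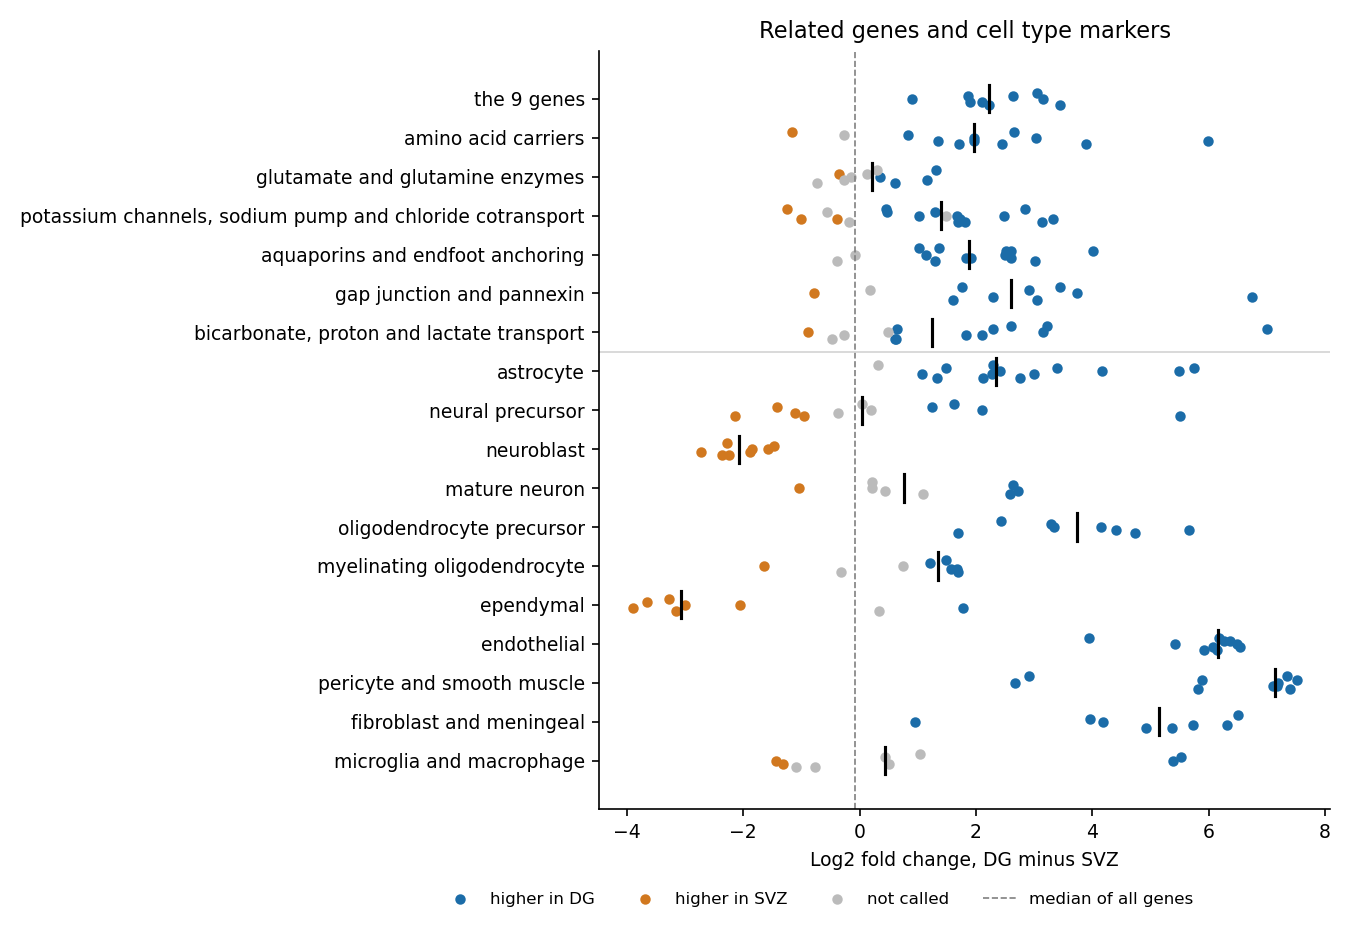
Log2 fold change, DG minus SVZ (horizontal axis), of each gene (points) in the 9 genes, 6 lists of related genes and 11 lists of cell type markers (rows), coloured by the call from limma, with a black bar at each list's median and a dashed line at the median of all genes (-0.07). The 9 genes (median 2.22) lie near the astrocyte markers (2.35) and between the neural precursor (0.05) and the endothelial markers (6.16).

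The genes with the most similar profile were sought among 9469 other genes whose mean level was 3 log2 CPM or more. Likeness was the root mean square difference over the 9 libraries between values centred on each gene's own mean, so a smaller value is closer. Values were not scaled, so closeness largely reflects a regional difference of similar size, and less a shared variation between libraries of a region. The mean profile of the 9 genes was closest to Tpp1, a lysosomal peptidase gene (0.11), then to Fuca2, a fucosidase gene (0.13), Mertk, a receptor kinase gene for engulfment of debris (0.13), Plcd4, a phospholipase gene (0.14), and Pdpn, the podoplanin gene (0.14). Log2 fold changes of these neighbours ran from 2.22 (Plcd4) to 2.36 (Fuca2), beside the median of 2.22 of the 9 genes. Tpp1 was 8.75, 8.45, 8.78, 8.69 and 8.80 log2 CPM in DG and 5.86, 6.58, 6.63 and 6.60 in SVZ. Among the 9 genes themselves Slc1a2 was closest to their mean (0.17) and Glul farthest (0.74).

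Single genes had their own neighbours. Gja1 was closest to Nim1k (0.08) and S1pr1, a sphingosine phosphate receptor gene (0.12), and Glul to Fggy and Bco2 (both 0.11). Slc1a2 was closest to Tmem229a and Galt (both 0.13), Slc1a3 to Icosl and Itih3 (both 0.15), and Gjb6 to Gdpd2 (0.14) and Itih3 (0.15). Kcnj10 was closest to Degs1 (0.14) and Clvs1 (0.15), Aqp4 to Dusp22 (0.15) and Paqr7 (0.16), and Slc4a4 to Bhlhe40 (0.16) and Mcc (0.18). Atp1b2 had no near neighbour on this scale, the closest being Ostf1 (0.33) and Arsb (0.36).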

How the data were processed

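Complementary DNA was primed with poly-dT, template-switched, amplified, sheared and made into libraries, per the labels' protocols. STAR, edgeR and mm10 are named in the submitters' processing notes, and their versions, the gene counter, annotation and filter are not stated there. Values deposited by the authors are log2 CPM of 14477 genes in 9 libraries, as the values show: a prior count of 1 read and library totals alone gave back every value within 5.33e-14, and 100% of recovered reads were whole (tolerance 0.001). Every gene exceeded 1 CPM in at least 3 libraries. Libraries of a region differed beyond sampling noise (chi-square over degrees of freedom from 19.4 to 172).

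DG was compared with SVZ by limma (version 3.58.1 under R 4.3.3), with its trend option, tissue as the only term and Benjamini-Hochberg adjustment over all genes (threshold 0.05). Adjusted p-values of genes come from that model, and intervals are 95%. The fit was tested on simulated reads in which few genes were changed and all had the same spread, unlike these data. That test checks the code and does not give error rates here. Symbols, coordinates and exon lengths are from GENCODE M21 (14433 identifiers matched, 44 did not), promoters from RefSeq. Named genes are the 9 genes, up to 2 per direction with the smallest adjusted p in each of 6 related lists, and the nearest 5 profiles to their mean and 2 to each gene; other list members are examples, and some genes the rule names are not reported here. The 9 genes, the lists and the tests were chosen with earlier results of these data known. Alternatives were TMM scaling, prior counts of 0.25 and 5, a filter at a mean of 1 log2 CPM, leaving out libraries, a replicate block and limma's voom on recovered reads.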

Additional observations from a re-analysis of the deposited data

Results flagged for a closer look

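Of 110 groups of libraries checked for a library far from the others by Dixon's criterion, 8 had such a library, where chance gives about 1 in 20. Among the 9 genes this was Kcnj10 in both regions, with DG 5 at 8.27 log2 CPM against 7.80 to 7.93 and SVZ 4 at 5.47 against 5.28 to 5.29. SVZ 1 stood apart for Gpt (1.45 against 2.43 to 2.57), Gja4 (2.19 against 0.70 to 0.83) and Tpp1 (5.86 against 6.58 to 6.63). DG 2 stood apart for Slc12a7 (4.84 against 5.09 to 5.17), Dusp22 (3.81 against 4.16 to 4.25) and Nim1k (5.74 against 6.01 to 6.10). The endothelial mean was also high in SVZ 1 (2.10 against -0.38 to 0.07), as was the neuroblast mean in DG 2 (9.65 against 8.60 to 8.95).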

How the results depend on the processing

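All 9 genes were called higher in DG and 0 in SVZ under each of the 16 alternatives run, 9 of which left out a single library. Log2 fold changes, DG minus SVZ, stayed within 0.73 to 0.98 for Glul and 3.27 to 3.54 for Slc1a3. The largest adjusted p over these was 0.00311, for Glul. Over all genes, the counts higher in DG and SVZ were 5008 and 4476 with TMM and 3999 and 4358 with the filter. With the replicate number as a block they were 4513 and 4273, and all 9 genes stayed called higher in DG. The labels do not say whether equal numbers mark pairs. Deviations of same-numbered libraries correlated at -0.17 to 0.01 over the 4 shared numbers, which cannot settle it. With the block Got2 alone among 49 named genes changed its call (limma adjusted p = 0.0811).

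Among the related lists, the enzyme count higher in SVZ was 0 with TMM, 0 with voom and 2 with a prior count of 5. The pannexin and gap junction count higher in SVZ was 0 without SVZ 1, DG 2 and DG 3. Leaving out 1 library gave 1 to 2 carriers, 0 to 1 enzymes, 0 to 1 endfoot genes, 0 to 1 gap junction genes and 1 to 2 bicarbonate genes higher in SVZ, 2 to 5 enzymes higher in DG, and 2 to 4 potassium and chloride genes higher in SVZ. The cause was not tested. For the ratios it gave differences of -1.38 to -1.29 (Slc1a2 minus Slc1a3), 1.20 to 1.32 (Gjb6 minus Gja1), -0.55 to -0.28 (Aqp4 minus Kcnj10), -1.55 to -0.82 (Slc4a4 minus Atp1b2), -1.23 to -1.18 (Glul minus Slc1a2) and -2.59 to -2.50 (Glul minus Slc1a3). For the 4 ratios that passed, the exact permutation test's adjusted p was 0.0343 to 0.0429 without 1 DG library and 0.0536 without 1 SVZ library, where fewer libraries raise the smallest possible p. For Aqp4 minus Kcnj10 it was 0.0857 to 0.25. edgeR and DESeq2 were planned and were not run. In their place voom on the recovered reads was added after seeing the data. Reads without molecular tags limit precision to counting error at best, and depth limits none of the 9 genes (at least 389 reads).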
